A study of Mus musculus with 4 samples.

Results

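The kainate receptor genes and their auxiliary subunit genes were measured in mouse hippocampus: Grik1, Grik2, Grik3, Grik4 and Grik5, which encode the pore-forming subunits GluK1 to GluK5, and Neto1 and Neto2. The set was chosen by gene name, and all 7 members were found among the 52636 genes of the deposited tables. The series is an RNA immunoprecipitation (RIP-seq) study that recovers RNA bound to YTHDF2, a reader of the mRNA mark m6A, and its title gives the search for hippocampal YTHDF2 targets as the aim. Its 4 samples, all from wild-type C57BL/6 mice at postnatal day 40, are 2 input libraries of lysate RNA and 2 libraries of immunoprecipitated RNA. The values below are those of the 2 input libraries, called the shallower and the deeper by their totals, and the immunoprecipitated libraries were not analysed here. With 1 group no groups were tested against each other, and nothing below describes binding by YTHDF2. Whether separate animals gave the 2 inputs is not stated in the labels, and the spread between them may be technical.

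Kainate receptors are glutamate-gated cation channels made of 4 subunits. GluK1, GluK2 and GluK3 can form channels alone and are called the primary or low-affinity subunits. GluK4 and GluK5 are the secondary or high-affinity subunits, which conduct only when joined with a primary subunit. Neto1 and Neto2 are single-pass membrane proteins that bind the receptor and slow its gating. In the hippocampus these receptors are best known at the mossy fibre synapse between dentate granule cells and CA3 pyramidal cells, on both sides of the synapse, and in interneurons.

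The coding sequences fell into the same classes as the proteins. Pairs among Grik1, Grik2 and Grik3 shared 71.15% to 72.19% of aligned bases, and Grik4 and Grik5 shared 71.27%. Pairs of a primary with a secondary subunit shared 55.81% to 61.22%. Pairs of any Grik with any Neto gene, which encode unrelated proteins, shared 56.69% to 60.67%, but of far fewer aligned bases. Grik1 and Neto1 aligned over 1581 bases, and Grik1 and Grik4 over 2711. Identity over aligned bases therefore cannot tell whether primary and secondary subunits are more alike than the unrelated pairs. Neto1 and Neto2 shared 66.16%. One short stretch shows both the likeness and the limit of a gene-level count. It is the pore loop around the codon of the Q/R site, at which adenosine deaminases can recode a glutamine of GluK1 and GluK2 to arginine in the RNA. The sequences are from GENCODE M21 transcripts on GRCm38, 27 bases each on the coding strand, with the Q/R codon in capitals.
Grik1: tttggcgttggagctctcatgCAGcaa
Grik2: tttggagttggagctctcatgCAGcaa
Grik3: tttggaatgggctccctgatgCAGcaa
Grik4: tttccggttggaggcttcatgCAGcaa
Grik5: ttccccgtgggtggcttcatgCAGcag
All 5 genes carry the same CAG codon in the genome. The Grik1 and Grik2 windows differed at 1 base, those of Grik4 and Grik5 at 5, and those of Grik3 and Grik5 at 11, the most of any pair. The windows did not follow the classes throughout, since Grik1 differed from Grik3 at 7 bases and from Grik4 at 6. The windows lie at chr16:87940539-87940565 (exon 13 of 18 of the Grik1 transcript with the longest coding sequence), chr10:49244326-49244352 (exon 13 of 17, Grik2), chr4:125691186-125691212 (exon 12 of 16, Grik3), chr9:42547620-42547646 (exon 16 of 21, Grik4) and chr7:25022494-25022520 (exon 15 of 20, Grik5). The Grik3 window is on the plus strand and the others are on the minus strand. Counts per gene do not show which base the RNA carried, so editing was not measured.

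The libraries held 2563069 counts (shallower) and 3334451 counts (deeper), of which the 7 genes took 1862 and 2037. Levels are given as CPM, the share of a library's counts times 1000000, and intervals in parentheses are exact 95% Poisson intervals that cover counting error only. The 7 genes summed to 669 ± 81.7 CPM (SD, n = 2). Markers of the labelled tissue were present, though some were low. A mean of 5 CPM was reached by 4 of 6 dentate granule cell, 5 of 5 CA1, 4 of 5 CA3 and 5 of 8 interneuron genes. Summed levels were 368 ± 8.36 CPM for 6 dentate granule cell genes, 616 ± 44.4 for 5 CA1 genes, 890 ± 78.9 for 5 CA3 genes and 517 ± 18.1 for 8 interneuron genes (SD, n = 2 each). They were 1112 ± 4.32 for 5 astrocyte genes, 3779 ± 39.4 for 5 oligodendrocyte genes, 287 ± 14.5 for 4 oligodendrocyte precursor genes and 165 ± 2.23 for 5 microglia genes. Choroid plexus (30.2 ± 7.02) and endothelial (13.8 ± 3.04) genes were lowest, and Aif1 and Folr1 had 0 counts in both libraries. In whole tissue, fewer cells of a type and less RNA per cell cannot be told apart.

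Of the primary subunit genes, Grik2 and Grik3 were well measured and Grik1 was low. Grik2 (ENSMUSG00000056073, chromosome 10, 49094833 to 49788766, minus strand, GRCm38) encodes GluK2, the main primary subunit at mossy fibre synapses. Its counts were 288 (shallower) and 359 (deeper), or 112 CPM (99.8 to 126) and 108 CPM (96.8 to 119). The intervals overlapped, and the mean was 110.01 ± 3.32 CPM. Grik3 (ENSMUSG00000001985, chromosome 4, 125490700 to 125714173, plus strand) encodes GluK3, a subunit of low glutamate sensitivity. It had 340 and 292 counts, 133 CPM (119 to 148) and 87.6 CPM (77.8 to 98.2). The shallower library was higher, and the intervals did not overlap. The mean of 110.1 ± 31.9 CPM was no different from that of Grik2 within this spread. Grik1 (ENSMUSG00000022935, chromosome 16, 87895900 to 88290265, minus strand) encodes GluK1, known in the hippocampus mainly from interneurons. It had 40 and 37 counts, 15.6 CPM (11.1 to 21.3) and 11.1 CPM (7.81 to 15.3). The intervals overlapped, and both values lay far below those of the other primary subunits.

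Grik5 was the most abundant member and Grik4 was intermediate. Grik5 (ENSMUSG00000003378, chromosome 7, 25009849 to 25072346, minus strand) encodes GluK5, which is held in the cell until it joins a primary subunit. It had 635 and 551 counts, 248 CPM (229 to 268) and 165 CPM (152 to 180). The shallower library was higher beyond counting error, yet the lower of the 2 values still exceeded every value of the other 6 members. Grik4 (ENSMUSG00000032017, chromosome 9, 42518135 to 42944493, minus strand) encodes GluK4, known for its strong expression in CA3 pyramidal cells. It had 162 and 228 counts, 63.2 CPM (53.8 to 73.7) and 68.4 CPM (59.8 to 77.9). These overlapped, with a mean of 65.8 ± 3.66 CPM.

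Both Neto genes were detected, and Neto1 was the higher. Neto1 (ENSMUSG00000050321, chromosome 18, 86394952 to 86506718, plus strand), whose product also associates with NMDA receptors, had 282 and 399 counts, 110 CPM (97.6 to 124) and 119.7 CPM (108 to 132). Neto2 (ENSMUSG00000036902, chromosome 8, 85636588 to 85700924, minus strand) had 115 and 171 counts, 44.9 CPM (37.0 to 53.9) and 51.3 CPM (43.9 to 59.6). For each gene the libraries overlapped, and the Neto1 values lay above both Neto2 values.

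**Figure D1:**
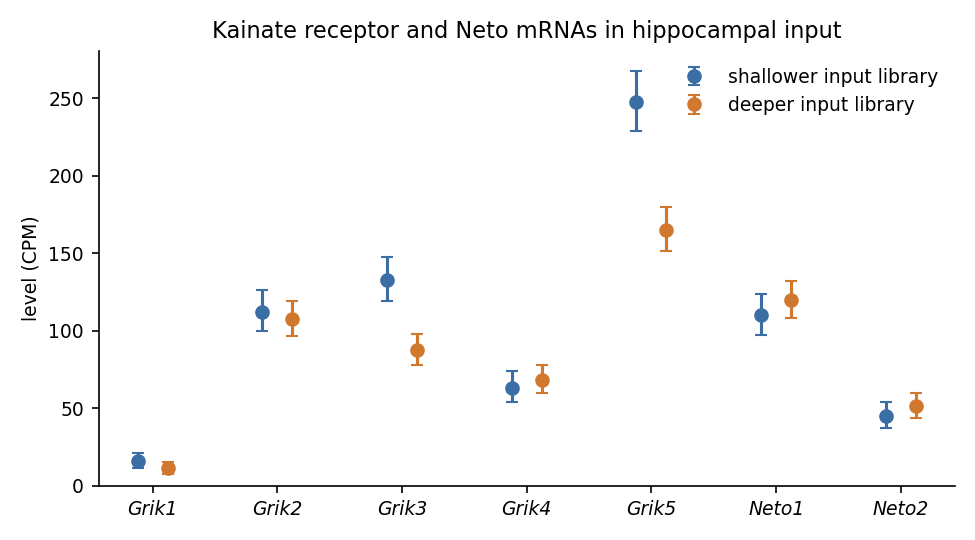
Level in CPM (y axis) of each of the 7 genes (x axis) in the shallower (blue) and deeper (orange) input library, with exact 95% Poisson intervals as bars. Grik5 stands above the other genes in both libraries (248 and 165 CPM), Grik1 is lowest (15.6 and 11.1 CPM), and Grik3 and Grik5 are the 2 genes whose intervals do not overlap between libraries.

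By CPM the order of mean levels was Grik5, Neto1, Grik3, Grik2, Grik4, Neto2 and Grik1. The ranges over the 2 libraries overlapped between Neto1 and Grik3 and between Grik3 and Grik2, and did not overlap between the other neighbours. Among 10446 nuclear protein-coding genes that averaged 5 CPM or more, whose median was 27.3 CPM, Grik5 exceeded 93.1% and Grik1 26.6%. Neto1, Grik3 and Grik2 exceeded 85.4%, 84.7% and 84.7%, Grik4 74.7% and Neto2 66.6%. CPM is not divided by length, so this order mixes abundance with transcript size.

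Per length, Grik5 stayed first and Grik1 last, while the place of Grik2 depended on which length was used. The deposited FPKM (CPM per kilobase of 1 gene length) divides by 1 length per gene, which for 5 of the 7 genes lay within 1 base of the mean over the gene's GENCODE M21 transcripts. For Grik1 it was 3062 bases beside a mean of 3084, and for Neto1 3531 beside 3088. That mean counts short and noncoding transcripts as fully as the long mRNA. Of the 7 annotated Grik5 transcripts 1 is protein-coding, and the divisor was 2025 bases beside 4061 for the longest transcript. Grik2 has 11 transcripts, a divisor of 2984 and a longest transcript of 9427 bases, 3.16 times as long. Grik3 has 1 transcript, so its 8973 bases served under every choice.

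By FPKM, Grik5 had 122 (shallower) and 81.6 (deeper), against 37.7 and 36.1 for Grik2. Neto1 had 31.2 and 33.9, Grik4 13.6 and 14.7, and Grik3 14.8 and 9.76. Neto2 had 11.0 and 12.5 and Grik1 5.10 and 3.62. Grik4 and Grik3 overlapped, as did Grik3 and Neto2, and Grik2 lay just above Neto1 in both libraries. Divided by the longest transcript, Grik2 had 11.7 ± 0.353 CPM per kilobase (SD, n = 2), beside 13.8 ± 0.816 for Neto1, 12.3 ± 3.55 for Grik3 and 11.2 ± 0.621 for Grik4. Those 4 genes then followed each other with overlapping ranges from one to the next. Grik5 stayed above them at 50.8 ± 14.4, which was 4.63 and 2.84 times the level of Neto1, the next gene, in the shallower and deeper libraries. Over all annotated exons of a gene, Grik2 had 8.31 ± 0.251 and Grik5 39.96 ± 11.3 CPM per kilobase, and Grik2 took rank 5, below Grik4 (11.04 ± 0.613). Grik1 was lowest on each of these scales, with Grik5 13.4 to 24.0 times as high per length.

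**Figure D2:**
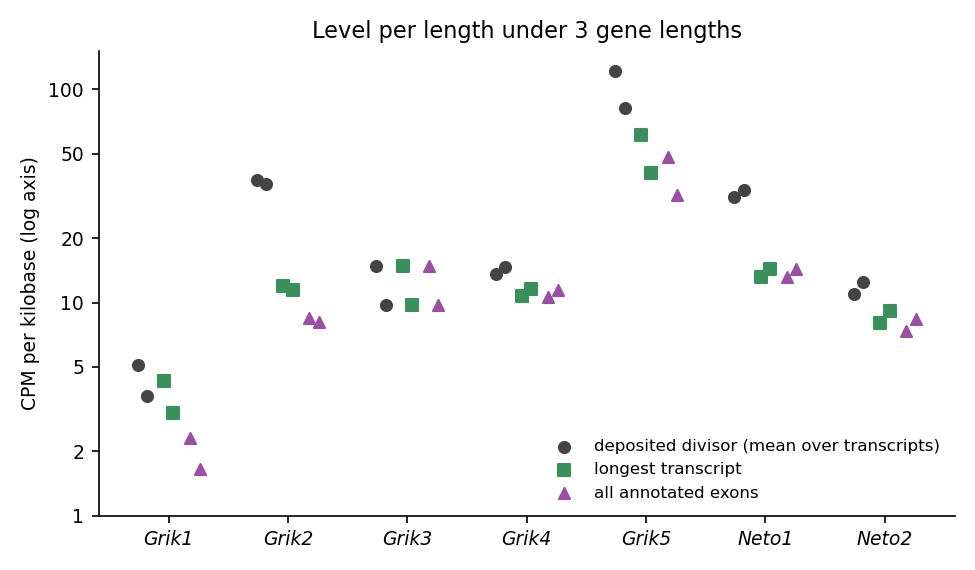
Level per kilobase (y axis, log scale, CPM per kilobase) of the 7 genes (x axis) under 3 gene lengths: the deposited divisor (circles), the longest transcript (squares) and all annotated exons (triangles), with the shallower library drawn left of the deeper in each pair. Grik5 is highest and Grik1 lowest under each length, Grik3 does not move, and Grik2 falls from 36.9 FPKM to 11.7 and 8.31.

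Within the 5 pore-forming genes, the secondary subunit genes held the larger part of the level. By FPKM, Grik4 and Grik5 together made 70.3% of the summed level in the shallower and 66.1% in the deeper library. With the longest transcript as length the shares were 69.8% and 68.4%, and by CPM 54.4% and 53.1%. Most of this was Grik5, at 63.2% and 55.98% of the summed FPKM. Grik2 held 19.5% and 24.8%, Grik4 7.03% and 10.1%, Grik3 7.64% and 6.70%, and Grik1 2.63% and 2.49%. Summed over genes, the mRNA of the subunits that need a partner was thus more abundant per length than that of the partners, under each length used. Levels of mRNA do not give the levels of the proteins or the makeup of the receptors.

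The 2 auxiliary genes summed to less than the 5 pore-forming genes, a sum led by Grik5. Gene by gene this order did not hold. Neto1 ranked 2 among the 7 members by CPM and with the longest transcript as length, and 3 by FPKM. Neto2 lay above Grik1. The summed FPKM of Neto1 and Neto2 was 0.218 of that of the 5 Grik genes in the shallower and 0.318 in the deeper library. Neto1 made 73.97% and 73.0% of the summed Neto FPKM, and 62.2% and 61.0% with the longest transcript as length. The split between Neto1 and Neto2 was thus nearly the same in both libraries, while their part relative to the Grik genes was not.

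Beside the other ionotropic glutamate receptors, the kainate subunits were a minor family with 1 abundant member. The 5 Grik genes made 11.5% ± 2.69 (SD, n = 2) of the summed FPKM of all 18 listed pore-forming subunit genes, 13.4% in the shallower and 9.62% in the deeper library. The NMDA receptor genes made 51.4% ± 2.47, the AMPA receptor genes 34.7% ± 0.393 and the delta receptor genes 2.36% ± 0.173. The order of the 2 large families depended on the length, since with the longest transcript AMPA receptor genes made 42.98% and NMDA receptor genes 40.7%, and with all annotated exons 45.5% and 37.4%. The kainate genes made 13.2% and 13.9% on these lengths, below both. By mean FPKM, Grik5 (102 ± 28.8) was the 6th of the 18 genes. It lay below Gria2 (142 ± 1.49) and above Gria3 (40.9 ± 13.3), with no overlap in either direction. The 4 highest by mean were the NMDA receptor genes Grin2b (357 ± 72.4), Grin2a (232 ± 22.6) and Grin1 (144 ± 27.8) and the AMPA receptor gene Gria1 (317 ± 12.9). The values of Gria2 (141 and 143 FPKM) lay inside the range of Grin1 (164 and 125), so the order of these genes was not settled. Grik2 was 8th and its values lay inside the range of Gria3. Grik4 was 10th, Grik3 13th and Grik1 17th, ahead of Grin3b alone, which had 0 counts in both libraries (up to 1.17 and 0.900 CPM allowed by 3 counts).

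**Figure D3:**
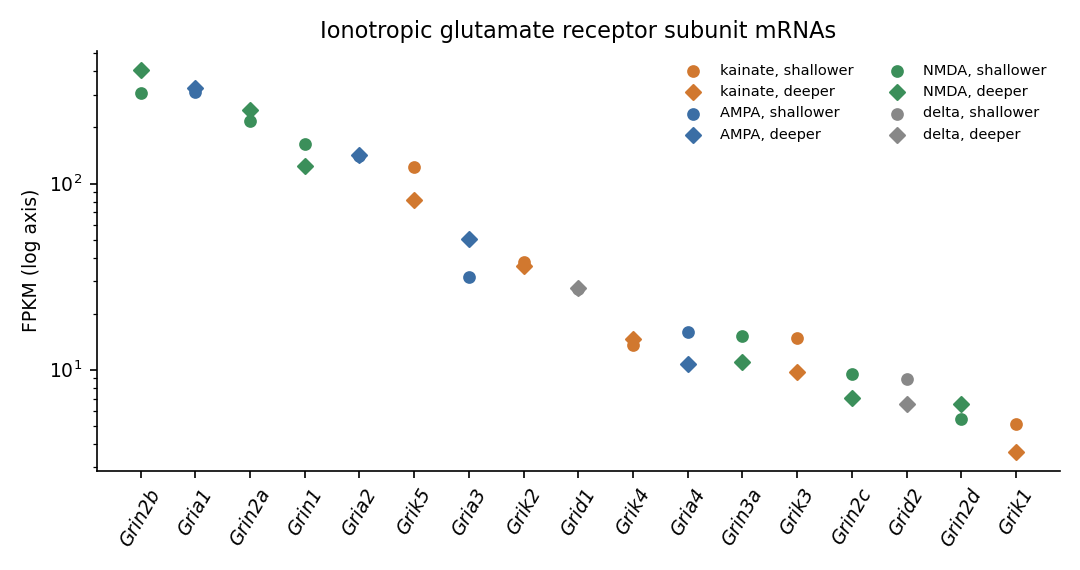
FPKM (y axis, log scale) of the 17 detected ionotropic glutamate receptor subunit genes (x axis, ordered by mean) in the shallower (circles) and deeper (diamonds) input library, coloured by family. Grik5 follows the 5 abundant AMPA and NMDA receptor genes, and Grik1 is last, at 5.10 and 3.62 FPKM.

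The 2 input libraries agreed within 2-fold for every member. Ratios compare the deeper with the shallower library as differences of log2(CPM + 0.5) after TMM scaling (trimmed mean of M values), and their exact 95% binomial intervals cover counting error only. At least 2-fold apart were 0 of 7 members, where 9.53% of the 12218 genes at 5 CPM or more were that far apart. At 20 CPM or more, which all members but Grik1 reached, the share of genes was 3.93%. A count of 0 among 7 is close to what either share would give. The ratio was above 0 for 4 members and below 0 for 3, with a median of 0.08, beside -0.000187 for all 12218 genes. Without TMM factors Grik2 moved to -0.06, where the median of all genes was -0.14.

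Grik3 had a ratio of -0.45 (interval -0.69 to -0.22) and Grik5 of -0.44 (-0.61 to -0.27), so both were higher in the shallower library, 1.37-fold and 1.36-fold. Of the 12218 genes, 63.3% had a ratio closer to 0 than Grik3 and 62.1% closer than Grik5. Ratios spread less at higher levels, and among the 1891 genes at 100 CPM or more, a minimum chosen after seeing the data, these shares were 83.1% and 81.9%. Neto1 was higher in the deeper library, at 0.26 (0.04 to 0.49). The intervals of Neto2 (0.33, -0.01 to 0.69), Grik4 (0.26, -0.04 to 0.56), Grik2 (0.08, -0.14 to 0.31) and Grik1 (-0.33, -1.03 to 0.33) held 0. The interval of Grik1, from 40 and 37 counts, was the widest and reached past 2-fold toward the shallower library.

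**Figure D4:**
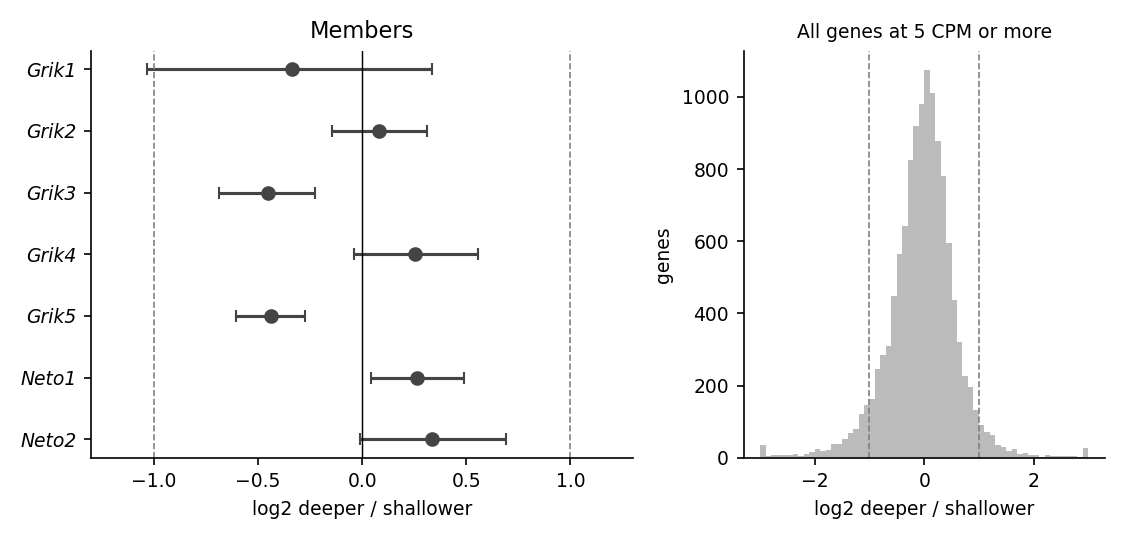
Left: log2 ratio of the deeper over the shallower input library (x axis) for each member (y axis), with exact 95% binomial intervals and dashed lines at 2-fold. Right: the same ratio (x axis) for all annotated genes at 5 CPM or more (y axis: number of genes, with values beyond 3 drawn at 3), which shows that the members, from -0.45 to 0.33, lie within the 2-fold lines.

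Base composition of the transcripts varied alongside several of these ratios. The members span nearly the whole range of mouse mRNAs. The longest Grik5 transcript was 61.7% GC, above 97.9% of the 10446 protein-coding genes, and that of Neto2 was 36.5%, above 0.603%. Grik3 had 54.2%, Grik4 52.2%, Grik1 47.9%, Neto1 39.6% and Grik2 37.9%, and the median gene 49.7%. Among the 500 genes nearest in GC content the median ratio was 0.35 for Neto2 and Grik2 and 0.32 for Neto1. It was -0.19 for Grik5, -0.14 for Grik3, -0.08 for Grik4 and 0.04 for Grik1. After subtraction of these medians Grik5 was at -0.25, Grik3 at -0.31 and Neto1 at -0.06, so Neto1 lost its direction, and Grik2 moved to -0.27. Grik4 moved from 0.26 to 0.34 and Grik1 from -0.33 to -0.37, both further from 0. The part of GC content in these differences was not tested.

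**Figure D5:**
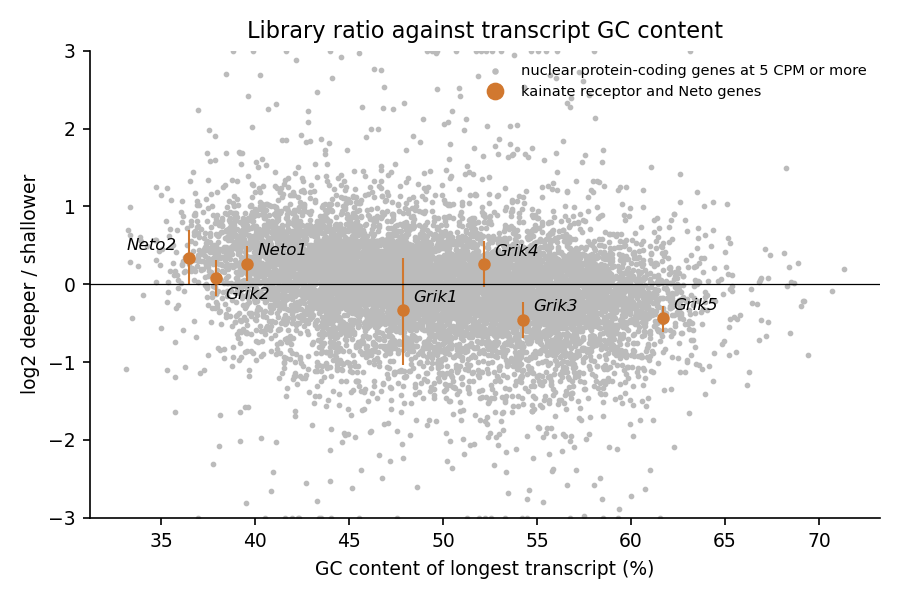
Log2 ratio of the deeper over the shallower input library (y axis, values beyond 3 drawn at the edge) against GC content of the longest transcript (x axis, percent). Grey points are nuclear protein-coding genes at 5 CPM or more and orange points are the 7 members with exact 95% binomial intervals. The GC-poor Neto2, Neto1 and Grik2 lie above 0 (all 3 below 0 once the GC trend is subtracted), and the GC-rich Grik3 and Grik5 below. Grik4 (52.2% GC) lies above 0 at 0.26 and Grik1 (47.9%) below at -0.33, and both lie further from 0 once the trend is subtracted (0.34 and -0.37).

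The members also differed at their promoters. RefSeq promoter windows (GRCm38.p6, 300 bases, from 250 before to 50 after the start) were held for 5 members, with 2 windows for Neto2. Windows of Grik1 and Neto1 were not used here. The number of CG dinucleotides, a letter pair that reads the same on both strands, was 50 for Grik3, 42 for Grik4, 26 for Grik2 and 10 for Grik5. The 2 starts of Neto2 had 36 and 0, with at least as many held by 6.23% and 100% of all windows. At least as many were held by 0.855% of all 32851 windows for Grik3, 3.03% for Grik4, 16.9% for Grik2 and 43.5% for Grik5, and the median window had 7. Among the 4 Grik windows, that of Grik5, the most abundant member, had the fewest CG pairs, although it was 72.0% GC. Grik2 and Grik3, with 26 and 50 CG pairs, had nearly the same mean level, 110.01 and 110.1 CPM. A relation of CG number to level was not tested. The windows of Grik5 (chr7:25072320-25072619, minus strand) and Grik3 (chr4:125490446-125490745, plus strand) are shown as the 2 ends among the 4 Grik windows, each CG in capitals.
Grik5: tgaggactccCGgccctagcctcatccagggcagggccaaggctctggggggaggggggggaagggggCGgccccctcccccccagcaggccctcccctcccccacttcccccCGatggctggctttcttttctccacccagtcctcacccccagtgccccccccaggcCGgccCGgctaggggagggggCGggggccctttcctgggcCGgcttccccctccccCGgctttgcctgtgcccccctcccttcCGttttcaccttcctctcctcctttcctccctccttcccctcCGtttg
Grik3: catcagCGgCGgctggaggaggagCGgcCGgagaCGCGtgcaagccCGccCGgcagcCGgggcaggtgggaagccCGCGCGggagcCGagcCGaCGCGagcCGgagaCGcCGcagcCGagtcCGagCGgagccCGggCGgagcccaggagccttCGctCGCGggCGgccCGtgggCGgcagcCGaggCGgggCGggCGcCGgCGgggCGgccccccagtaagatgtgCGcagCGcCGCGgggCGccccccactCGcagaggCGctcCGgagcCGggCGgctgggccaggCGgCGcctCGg
Methylation and promoter activity were not measured.

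Because YTHDF2 binds m6A, the letters GGACT, the commonest form of the m6A consensus, were counted on the sense strand of each gene's longest transcript. Grik5 held 8, or 1.97 per kilobase, more than 91.0% of the 10446 protein-coding genes, whose median was 1.02. Grik4 held 1 in 5887 bases, or 0.170 per kilobase, above 5.02% of genes. Grik2 held 9 (0.955 per kilobase), Neto1 7 (0.838), Grik1 3 (0.821), Grik3 7 (0.780) and Neto2 4 (0.713), each below the median. The letters mark no methylated base, and methylation was not measured.

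The transcript sequences of the members were largely distinct from those of other genes. Of the 31-base words of each gene's transcripts, 0.886% to 1.17% for the 5 Grik genes, 2.45% for Neto1 and 0.0163% for Neto2 recur in other genes' transcripts on either strand. Overlapping annotated genes held fewer counts than the members they overlap. The 6 that lie inside the 694 kb of Grik2, on the same strand, summed to 36 and 34 counts, beside 288 and 359 for Grik2. The ferritin pseudogene Ftl2-ps inside Grik3 had 46 in each library, beside 340 and 292 for Grik3. Those inside Grik4 had 1 and 2. The strand setting of the counting is not given in the sources used here.

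Proteins that bind, place or modify kainate receptors were taken from a list of 21 genes, of which 20 were measured, all at 5 CPM or more. The highest by CPM were Snap25 (841 ± 73.3), a SNARE protein that binds GluK5, Dlg4 (589 ± 136), the scaffold PSD-95, Prkca (380 ± 56.1), a protein kinase C, and Nrxn3 (314 ± 12.6), a presynaptic neurexin. The ratio was above 0 for 10 and below 0 for 10, with a median of 0.01. At least 2-fold apart was 1 of 20, the PDZ protein gene Pick1, with 46 and 24 counts (-1.12, interval -1.95 to -0.43), where 9.53% of genes at 5 CPM or more were that far apart and 5.88% were so toward the shallower library, as Pick1 was. A further 4 genes are named for their role, chosen after their values were seen. Adarb1, whose product edits the Q/R site shown above, had 174 and 163 CPM, and Adar, which encodes another RNA adenosine deaminase, 188 and 148 CPM. C1ql2 and C1ql3, secreted mossy fibre proteins that recruit kainate receptors, had 48.4 and 43.2 CPM and 127 and 104 CPM.

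Genes closest to the highest and the lowest member were sought among 12667 protein-coding genes by distance in log2 FPKM over the 2 libraries. Nearest to Grik5 were Camta2 (123 and 81.9 FPKM, distance 0.01), Pacsin1 (123 and 79.6, 0.04) and Mat2a (124 and 85.4, 0.07). Nearest to Grik1 were Tamm41 (5.08 and 3.63 FPKM, distance 0.00457), Kremen1 (5.14 and 3.66, 0.02) and Them4 (5.17 and 3.61, 0.02). With 2 libraries this likeness is one of level and library ratio only.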

How the data were processed

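Levels were measured in the 2 input libraries. Both tables give gene-level values: raw counts and FPKM, as deposited by the authors. BWA 0.7.12, MACS2 2.1.0, HOMER and GRCm38 are named, per the submitters' processing notes, without their roles. For the read counter, strand and multi-mapping settings and annotation, nothing is stated in the sources used here. The FPKM that the authors deposited equalled the count divided by the library total and 1 length per gene, equal in both libraries for 100% of 18734 genes (tolerance 0.01 bases). Column names give the input group but not which replicate.

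Genes were named through GENCODE M21, which held 52403 of 52636 identifiers. CPM used totals over all genes. TMM factors (1.05 shallower, 0.951 deeper; edgeR 4.0.16) came from genes averaging 5 CPM or more. The pseudocount was 0.5 CPM. Alternatives were no scaling, median-of-ratios factors (DESeq2 1.42.0), a pseudocount of 1, other minimums, other lengths and subtraction of the GC trend. Coding sequences were aligned globally with Biopython 1.88, and identity is over aligned bases. The ratio script was tested on simulated counts with set fold changes and counting error only. That test does not show how far real libraries spread. Both per-library columns of each table were used.

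Named genes are the 7 members, the 4 highest genes of the partner list and of the list of other ionotropic receptor subunits, genes of these 2 lists at least 2-fold apart at 5 CPM or more, and the 3 genes nearest to the highest and the lowest member. Adarb1, Adar, C1ql2, C1ql3, Gria2, Gria3, Grin3b, Aif1, Folr1 and the overlapping gene Ftl2-ps were named outside this rule, after their values were seen. The members and lists were chosen with earlier results of these data known. Klhl17, the other listed partner, was not analysed here.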

Additional observations from a re-analysis of the deposited data

How the results depend on the processing

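The count of members at least 2-fold apart stayed at 0 without TMM factors, with median-of-ratios factors, with a pseudocount of 1 CPM, with no minimum and at a minimum of 20 CPM. The summed level of the members was 906 CPM when scaled to nuclear protein-coding counts and 214 in FPKM, another unit; from single libraries it was 611 to 726 CPM. The kainate share of ionotropic receptor levels was 8.42% by CPM, which weights long transcripts, 13.2% with the longest transcript and 13.9% with all annotated exons as length (the last chosen after seeing the data), and 9.62% to 13.4% from single libraries. Subtracting the GC trend turned the ratio of Neto1 to -0.057; the cause was not tested. It moved 3 other member ratios outside their counting intervals (Grik2, Grik5 and Neto2, the last to -0.01), and 3 stayed inside. Of the 7 ratios, 7 stayed inside without TMM factors, where Grik2 was at -0.06 and the median of all genes at -0.14. Levels per length moved by more than their SD for 5 of 7 members with the longest transcript. No paired analysis was possible because the 2 groups that share replicate numbers are input and immunoprecipitated samples, and values of the input group alone were analysed, in columns that carry no settled replicate number. Depth limits Grik1 most, at 40 and 37 counts.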
